A study of Mus musculus with 10 samples.

Results

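The TAM family comprises the receptor tyrosine kinases Tyro3, Axl and Mertk and their ligands Gas6 and Pros1 (protein S). These 5 genes were taken by name from a deposited table of 28247 genes, and each was found there in 1 row. RNA came from wild-type (WT) primary microglia of the mouse, the macrophages that reside in brain tissue. Both groups were first treated with amyloid-β oligomers, aggregates of the peptide found in Alzheimer's plaques. All cells were then transfected, 5 libraries with a negative control mimic (control) and 5 with a mimic of miR-378a-3p (mimic), a microRNA that the series links to exercise and muscle vesicles. Amyloid-β and transfection were thus common to both groups, and the labels give no dose, time, strain, age or separate cultures, so p-values measure only the spread between these libraries, which may be technical.

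The ligands form a bridge in apoptotic cell clearance. Their vitamin K-dependent Gla domains bind phosphatidylserine on the surface of dying cells, and their other end engages a TAM receptor on the phagocyte. Mertk is the receptor best known for engulfment by resting macrophages and microglia, whereas Axl is known as a receptor induced by inflammatory and interferon signals and seen in microglia around plaques. TAM signalling is also known to restrain cytokine production through SOCS proteins, acting together with the interferon receptor.

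Totals ran from 48707985 to 65069571 counts per library, and 1 read pair was worth about 4 counts. The cells carried macrophage transcripts throughout, with a summed level of 12 microglial markers of 492 to 525 FPKM (fragments per kilobase of transcript, scaled to library depth) in control and 314 to 341 FPKM in mimic libraries 2 to 5. Tmem119 stayed under 1 FPKM in every library, and P2ry12 lay between 1.3 and 1.69 FPKM in control and 0.127 and 0.34 FPKM in mimic libraries. Mimic replicate 1 stood apart from the other 9 libraries. All 6 epithelial markers examined were highest there, with a sum of 64.3 FPKM, against 0 to 0.0661 FPKM in the others. The microglial sum of mimic replicate 1, 330 FPKM, lay within the range of the other mimic libraries. That library had been singled out beforehand by its Axl level, not by these markers. Each result for the 5 genes is given with and without it.

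Mertk was the most abundant of the 5 genes per transcript length in every library but mimic replicate 1, and it fell with the mimic. Mertk (ENSMUSG00000014361, chromosome 2, 128698956 to 128802894, plus strand) has 19 exons in its longest annotated transcript. Its level was 3.81, 3.43, 4.09, 3.77 and 3.39 FPKM in control replicates 1 to 5 and 2.36, 2.55, 2.39, 2.97 and 2.01 FPKM in mimic replicates 1 to 5. Every mimic library lay below every control library, and mimic replicate 1 lay inside the range of its group. The group means were 3.7 ± 0.29 and 2.46 ± 0.351 FPKM (SD, n = 5 each). On edgeR's TMM-scaled counts Mertk fell 1.6-fold (log2 fold change -0.68, SE 0.0954, edgeR quasi-likelihood adjusted p = 1.43e-05). Without mimic replicate 1 the log2 fold change was -0.66 (SE 0.105, edgeR adjusted p = 6.07e-05), where 61.7% of 16173 genes tested were called (31.1% lower, 30.6% higher) and 22.3% of the 15916 genes had mimic wholly below control. Of all 15916 genes tested, 31.5% were called lower and 63.2% were called in either direction (31.7% higher), and 14.7% had a log2 fold change below that of Mertk. The FPKM ranges of the groups did not overlap for 52.2% of these genes, with mimic the lower for 20.8%. Microglial markers were lower in the mimic libraries as well (above), and their part in the Mertk value was not tested. In bulk RNA, fewer cells of a type and less RNA per cell cannot be told apart. Mertk overlaps 2 other annotated gene models, and no source used here states if the counting made use of strand.

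Axl was far higher in mimic replicate 1 than in any other library and lower in the other 4 mimic libraries than in control, and it did not pass the test over all 10. Axl (ENSMUSG00000002602, chromosome 7, 25757273 to 25788705, minus strand), which binds Gas6, held 0.41, 0.344, 0.385, 0.459 and 0.294 FPKM in control replicates 1 to 5. It held 4.85 FPKM in mimic replicate 1 and 0.042, 0.042, 0.0108 and 0.0119 FPKM in mimic replicates 2 to 5. One mimic library was thus 10.6 times the highest control library, while the other 4 were all below the lowest control library. Without mimic replicate 1, mimic lay wholly below control for 22.3% of the 15916 genes. The means of 5 libraries were 0.378 ± 0.0627 FPKM in control and 0.992 ± 2.16 FPKM in mimic (SD). The difference did not pass (log2 fold change 1.27, SE 1.16, edgeR adjusted p = 0.36). In 15 alternatives mimic was the higher, with an edgeR or limma adjusted p from 0.231 to 0.917. Also on all 10 libraries, mimic was the lower with limma on log2(FPKM + 0.1) (-0.86, limma adjusted p = 0.525) and with a replicate block (-2.42, edgeR adjusted p = 0.0783).

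Mimic replicate 1 was singled out by its Axl level, so the Axl values without it are a description and carry no test. Mimic libraries 2 to 5 held 0.0267 ± 0.0177 FPKM (SD, n = 4), which is -3.88 as a log2 fold change against control (SE 0.36). The deposited counts behind it were 612 in the 5 control libraries and 36 in the 4 mimic libraries, or about 153 and 9 read pairs. Scaled to library totals, these made control 14.2-fold higher. Mimic libraries 2 to 5 held 14, 14, 4 and 4 counts each, close to or under a floor of 12 counts (3 read pairs), so the size of this difference is poorly fixed. With any other single library left out the log2 fold change stayed positive.

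**Figure D1:**
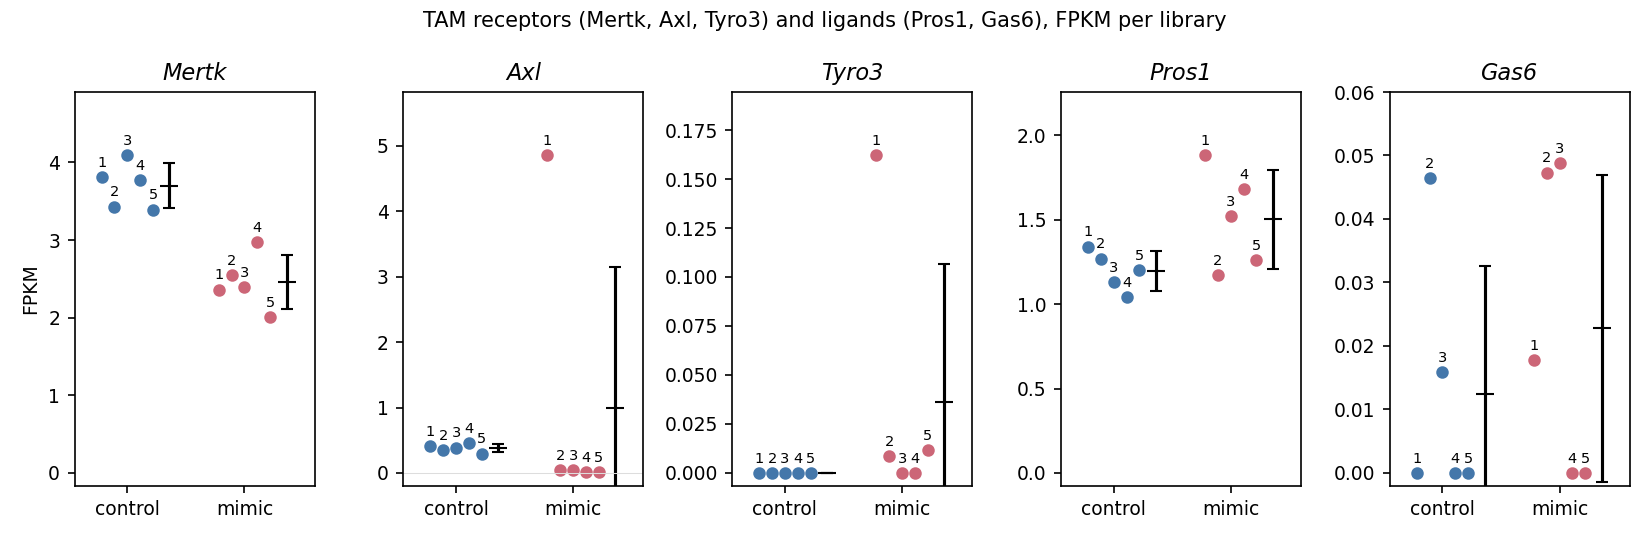
FPKM of each TAM receptor and ligand (vertical axes, FPKM, a separate linear scale for each gene) in the control and mimic libraries, with the replicate number at each point and the mean and SD of 5 libraries beside it. Mertk was 3.39 to 4.09 FPKM in control and 2.01 to 2.97 in mimic libraries, and mimic replicate 1 stood alone for Axl (4.85 FPKM) and Tyro3 (0.162 FPKM).

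**Figure D2:**
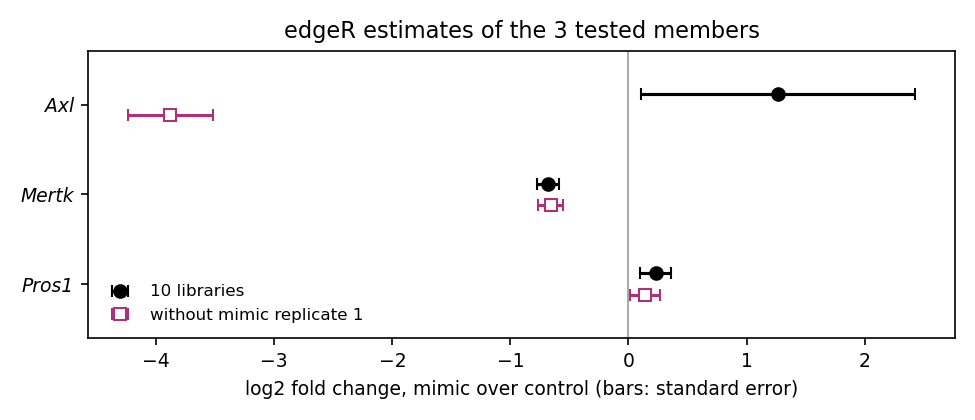
edgeR log2 fold change of mimic over control (horizontal axis, bars show the standard error) for the 3 members with enough counts to be tested, with all 10 libraries (filled circles) and without mimic replicate 1 (open squares). Axl moved from 1.27 to -3.88, Mertk from -0.68 to -0.66 and Pros1 from 0.23 to 0.14.

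Tyro3, the receptor of neurons and other non-myeloid cells as much as of macrophages, was at or near 0. Tyro3 (ENSMUSG00000027298, chromosome 2, 119797733 to 119818104, plus strand) had 0 counts in all 5 control libraries and 67, 4, 0, 0 and 5 counts in mimic replicates 1 to 5. Only mimic replicate 1 passed the floor of 12 counts, at 0.162 FPKM. The gene had too few counts for the main test. With no filter on low counts edgeR gave an adjusted p = 0.0418, with 67 of the 76 mimic counts in mimic replicate 1, and limma on log2(FPKM + 1) gave an adjusted p = 0.405. Without that library Tyro3 was not detectable above the floor in either group.

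Markers of epithelial cells moved with Axl and Tyro3 in mimic replicate 1. The keratins Krt8 and Krt18, which form the intermediate filaments of simple epithelia, stood at 27.4 and 28.4 FPKM there, and Krt8 did not exceed 0.0222 FPKM elsewhere. Krt19 stood at 2.27, the adhesion proteins Epcam and Cdh1 at 1.27 and 1.45, and the tight junction protein Cldn4 at 3.58 FPKM. Krt18, Epcam and Cdh1 were at 0 in all other libraries, and the other 3 markers reached at most 0.0222 to 0.0661 FPKM. The sums for fibroblast, neuron, oligodendrocyte, astrocyte and lymphocyte markers were each under 1 FPKM in every library, with 1 astrocyte marker, Gja1, highest in mimic replicate 1. The endothelial sum, nearly all of it Flt1, was 10.1 to 11.1 FPKM in control, 4.3 to 4.47 FPKM in mimic libraries 2 to 5 and 3.86 FPKM in mimic replicate 1. The part of these transcripts in the Axl and Tyro3 values of mimic replicate 1 was not tested.

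**Figure D3:**
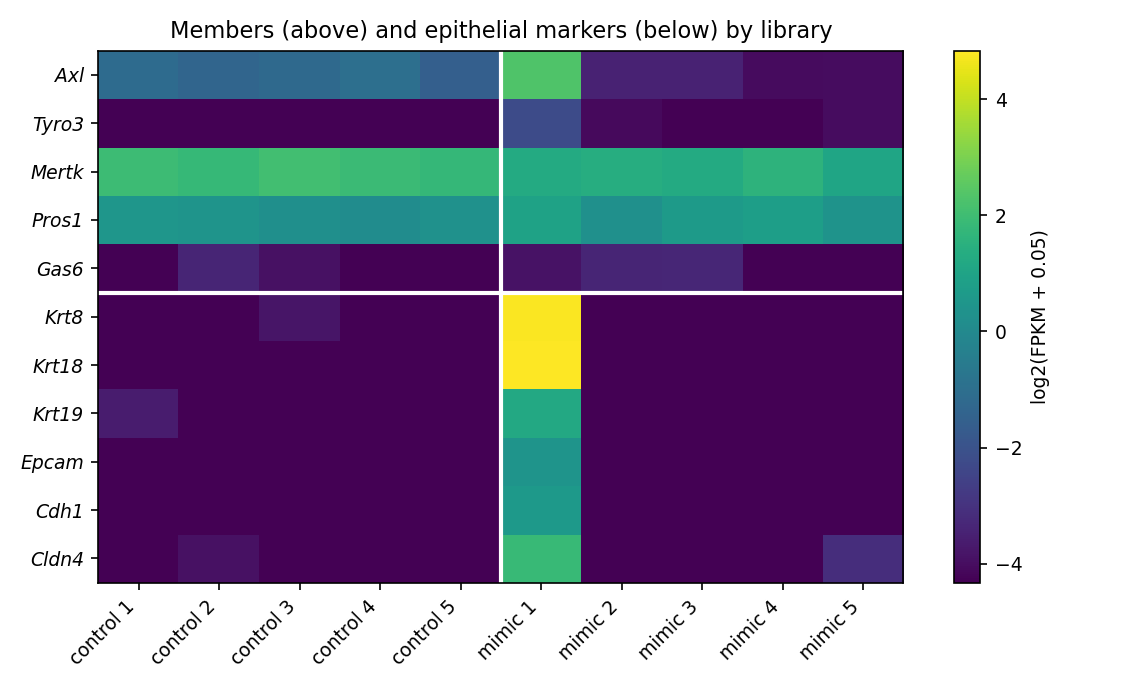
Level of the 5 TAM genes (upper rows) and 6 epithelial markers (lower rows) in each of the 10 libraries, coloured by log2(FPKM + 0.05), with white lines between the gene sets and between control and mimic. Axl at 4.85 FPKM and Tyro3 at 0.162 FPKM in mimic replicate 1 coincided with Krt8 at 27.4 and Krt18 at 28.4 FPKM, while Mertk did not stand apart there.

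The start regions of the 3 receptors are shown because Axl and Tyro3 were both highest in mimic replicate 1 and Mertk was not. The sequences are from RefSeq on GRCm38.p6 and run 5′ to 3′ on the gene's strand, from 250 bases before to 50 bases after the annotated start. Capitals mark GGGCGG or its reverse complement CCGCCC, the GC box bound by Sp1-family factors. They cover chr7:25788684-25788983 (minus) for Axl, chr2:119799264-119799563 (plus) for Tyro3 and chr2:128698665-128698964 (plus) for Mertk.
Axl: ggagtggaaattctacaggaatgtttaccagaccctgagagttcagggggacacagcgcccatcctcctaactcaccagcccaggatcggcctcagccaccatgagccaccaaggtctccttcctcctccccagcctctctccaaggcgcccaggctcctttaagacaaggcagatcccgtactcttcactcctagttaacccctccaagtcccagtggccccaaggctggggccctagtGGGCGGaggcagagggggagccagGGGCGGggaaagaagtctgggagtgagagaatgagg
Tyro3: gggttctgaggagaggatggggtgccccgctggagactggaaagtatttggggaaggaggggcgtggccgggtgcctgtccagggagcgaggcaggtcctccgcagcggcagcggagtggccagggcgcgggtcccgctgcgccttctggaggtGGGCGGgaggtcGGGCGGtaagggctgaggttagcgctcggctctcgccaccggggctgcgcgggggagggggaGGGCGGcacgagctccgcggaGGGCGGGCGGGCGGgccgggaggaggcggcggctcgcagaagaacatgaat
Mertk: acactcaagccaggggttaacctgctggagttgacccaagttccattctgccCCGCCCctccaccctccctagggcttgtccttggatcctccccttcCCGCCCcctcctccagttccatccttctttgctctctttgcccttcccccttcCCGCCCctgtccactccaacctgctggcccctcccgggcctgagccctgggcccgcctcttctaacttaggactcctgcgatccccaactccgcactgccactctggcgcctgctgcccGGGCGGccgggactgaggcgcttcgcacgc
The GC box occurred 2 times for Axl, 6 times for Tyro3, where 3 of the matches overlap or adjoin in 1 run, and 4 times for Mertk, and 35.7% of 32851 promoters of the same length held at least 1. The start regions of Gas6 and Pros1, not shown, held 4 and 5 matches. The number for Mertk lay between those for Axl and Tyro3, and a link between the motif and level was not tested. No promoter of the 5 genes held TGANTCA, the AP-1 motif, or TATAAA on either strand, against 7.81% and 13.6% of all promoters. GC content was 60.3% for Axl, 73.3% for Tyro3 and 66.0% for Mertk, against a median of 52.7%.

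Of the ligands, Pros1, an anticoagulant cofactor that binds Mertk and Tyro3, was the one detected. Pros1 (ENSMUSG00000022912, chromosome 16, 62854307 to 62929346, plus strand) held 1.34, 1.27, 1.13, 1.04 and 1.2 FPKM in control replicates 1 to 5. In mimic replicates 1 to 5 it held 1.88, 1.17, 1.52, 1.68 and 1.26 FPKM. The groups overlapped, with 2 mimic libraries inside the control range. The means were 1.2 ± 0.117 and 1.5 ± 0.291 FPKM (SD, n = 5 each), and the difference did not pass (log2 fold change 0.23, SE 0.129, edgeR adjusted p = 0.129). It was 0.14 (SE 0.124, edgeR adjusted p = 0.34) without mimic replicate 1, which held the highest level. It passed without mimic replicate 2 (log2 fold change 0.31, edgeR adjusted p = 0.0463) and with library totals in place of TMM scaling (0.31, edgeR adjusted p = 0.0491), so the call depended on these choices.

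Gas6, the only ligand that binds Axl with high affinity, was not detectable at this depth in either group. Gas6 (ENSMUSG00000031451, chromosome 8, 13465374 to 13494490, minus strand) had 0, 8, 3, 0 and 0 counts in control replicates 1 to 5. It had 3, 8, 8, 0 and 0 counts in mimic replicates 1 to 5. All 10 values are under the floor of 12 counts (0.184 to 0.246 CPM in these libraries), and no fold is given. Mimic replicate 1, where Axl and Tyro3 were highest, was not high in Gas6.

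The 5 genes kept a clear order in control cells. The ranges of Mertk (3.39 to 4.09 FPKM), Pros1 (1.04 to 1.34 FPKM) and Axl (0.294 to 0.459 FPKM) did not overlap, while Gas6 (0 to 0.0464 FPKM) and Tyro3 (0 FPKM) were both under the floor. In mimic libraries 2 to 5 Mertk (2.01 to 2.97 FPKM) and Pros1 (1.17 to 1.68 FPKM) stayed apart, and Axl (0.0108 to 0.042 FPKM) overlapped with Gas6 (0 to 0.0488 FPKM) and Tyro3 (0 to 0.0116 FPKM). In mimic replicate 1 Axl came first with 4.85 FPKM, followed by Mertk with 2.36 and Pros1 with 1.88 FPKM.

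Mertk made up nearly all receptor transcript after the mimic outside mimic replicate 1. It took 89.2 to 92.0% of the summed FPKM of the 3 receptors in control libraries and 98.1 to 99.6% in mimic libraries 2 to 5, but 32.0% in mimic replicate 1, where Axl took 65.8%. The share of Axl was 7.98 to 10.8% in control libraries and 0.362 to 1.73% in mimic libraries 2 to 5. The receptors summed to 4.08 ± 0.333 FPKM in control (SD, n = 5) and 2.51 ± 0.396 FPKM in mimic libraries 2 to 5 (SD, n = 4), with 7.37 FPKM in mimic replicate 1. Ligand transcript per receptor transcript was 0.299 ± 0.0454 in control (SD, n = 5) and 0.574 ± 0.0781 in mimic libraries 2 to 5 (SD, n = 4). The ratio in mimic replicate 1, 0.257, lay inside the control range of 0.246 to 0.35. These shares and ratios are descriptions of the 5 genes and were not tested.

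**Figure D4:**
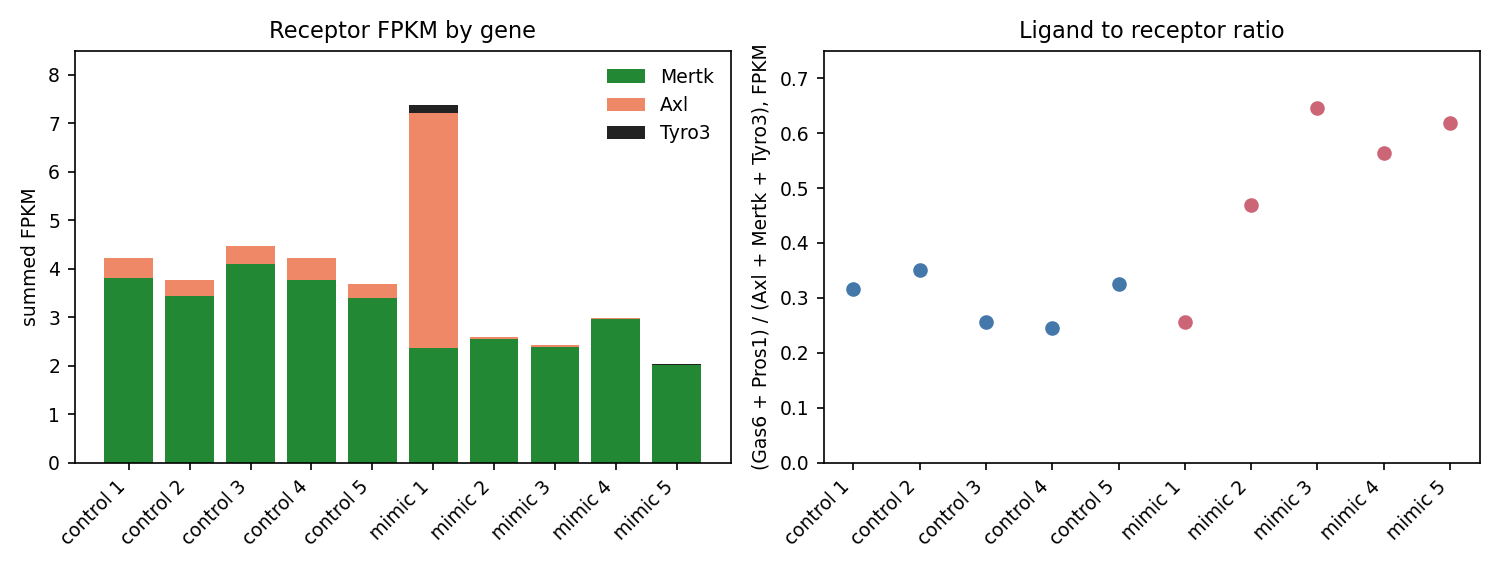
Left, summed FPKM of the TAM receptors in each library, stacked by gene; right, the ratio of summed ligand FPKM to summed receptor FPKM, with control in blue and mimic in red. Receptors summed to 3.69 to 4.47 FPKM in control, 7.37 in mimic replicate 1 and 2.03 to 2.98 in the other mimic libraries, and the ratio was 0.246 to 0.35 in control and 0.469 to 0.646 in mimic libraries 2 to 5.

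The genes with the most similar profiles to each tested member were found by the root mean square difference between centred log2(CPM + 0.25) values over the 10 libraries. For Axl the nearest was the transcription factor gene Myc, at a distance of 0.6, with 0.395 FPKM in control, 2.6 FPKM in mimic replicate 1 and a mean of 0.04 FPKM in the other mimic libraries. The collagen IV chain gene Col4a2 (0.965) and Tinagl1 (1.0) came next. The match for Axl includes mimic replicate 1, where Axl stood apart, and its distances were larger than those for Mertk and Pros1. Shared regulation was not tested. For Mertk the nearest were Pik3ip1, an inhibitor of PI3-kinase (0.0987), Afg1l (0.103) and Bphl (0.104), and for Pros1 they were Gm49741 (0.118), Gm1818 (0.119) and Stard10 (0.122).

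The other receptors and bridges for phosphatidylserine were lower on balance. Of 19 listed, 17 were in the table and 16 were tested; 11 fell, 3 rose and 2 did not pass, with a median log2 fold change of -0.65 against -0.0021 over all genes tested. The share that fell was 68.8%, against 31.5% of all genes, and 18.8% rose, against 31.7%. The number that fell ranged from 8, with a mean FPKM of at least 1, to 11 over 20 alternatives. Some of those that fell were under 1 FPKM in every library or had FPKM ranges that overlapped between the groups. Cd300lf and Cd300lb, receptors of the CD300 family that bind membrane lipids, fell from 20.8 ± 0.677 to 11.7 ± 0.591 and from 16.1 ± 0.458 to 8.56 ± 0.876 FPKM (SD, n = 5 each). Lrp1, which takes up many ligands including calreticulin-bearing cells, fell from 50.7 ± 3.26 to 30.3 ± 0.709 FPKM. The scavenger receptor Stab1 fell from 5.8 ± 0.226 to 2.76 ± 0.284 FPKM, and C1qc, a chain of the complement opsonin C1q, from 3.4 ± 0.277 to 0.687 ± 0.194 FPKM. The edgeR adjusted p of these 5 genes was at most 4.34e-09. The 2 that did not pass were Cd36 and Thbs1. Thbs1, named here after its values were known, was 1.77 FPKM in mimic replicate 1 and 0.0963 to 0.319 FPKM in all other libraries.

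Signalling and engulfment genes went both ways, 5 rising, 7 falling and 7 not passing of 19 tested (median log2 fold change -0.0478). The share called, 63.2%, was that of all genes tested, 63.2%, and is no result about the list. Grb2, an adaptor that binds phosphorylated receptors, fell from 59.2 ± 2.24 to 36.7 ± 1.18 FPKM and Plcg2, a phospholipase below several myeloid receptors, from 90.8 ± 1.76 to 61.7 ± 2.07 FPKM (SD, n = 5 each). Rac1, the GTPase that drives cup formation, fell by 0.23 on the log2 scale. The adaptor Crk and the Rac activator subunit Elmo2 rose by 0.40 and 0.29. With limma on log2(FPKM + 1) the split was 8 rising and 4 falling, so the balance of this list depended on the scaling and test.

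The interferon receptor and SOCS list held 5 genes that fell, 2 that rose and 1 that did not pass of 8 tested (median -0.31). The share that fell was 62.5%, against 31.5% of all genes, and 25.0% rose, against 31.7%. Socs3, a feedback inhibitor of cytokine receptors, fell from 6.71 ± 0.422 to 4.08 ± 0.461 FPKM and Stat2, a transducer of interferon signals, from 6.9 ± 0.397 to 5.31 ± 0.17 FPKM (SD, n = 5 each). The kinase Tyk2 fell by 0.52 and the receptor chain Ifnar2 by 0.16 on the log2 scale. Among these 4 genes the edgeR adjusted p was at most 0.00505, and the call of Ifnar2 ended with library totals in place of TMM and with limma on FPKM at either pseudocount. Leaving out control replicate 1, control replicate 2 or mimic replicate 5 left 0 rising genes, and leaving out control replicate 5, mimic replicate 3 or mimic replicate 4 left 1.

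Of 8 genes for ligand carboxylation and receptor shedding, 3 rose, 2 fell and 3 did not pass, a share called of 62.5% that is close to the 63.2% of all genes and is no result about the list. Ggcx, the enzyme that carboxylates the Gla domains of Gas6 and Pros1, rose from 2.71 ± 0.182 to 3.73 ± 0.31 FPKM, and Vkorc1l1, which recycles vitamin K, by 0.17 on the log2 scale. Adam10, a membrane sheddase, rose from 25.8 ± 1.64 to 35.7 ± 1.77 FPKM. Adam17, the protease known to cleave Mertk, fell by 0.13 on the log2 scale, and the proprotein convertase Furin fell from 24.9 ± 1.97 to 10.5 ± 0.357 FPKM (SD, n = 5 each). The edgeR adjusted p was at most 0.0152 for these 5 genes. The call of Adam17 ended with library totals and with limma on FPKM, and that of Vkorc1l1 ended without control replicate 2 (edgeR adjusted p = 0.0795) or 3 (edgeR adjusted p = 0.0717). The median of the list was 0.12, and -0.00847 without mimic replicate 1. Rhbdf1, chosen after its values were seen, was 0.691 FPKM in mimic replicate 1 against at most 0.131 FPKM in control libraries and did not pass.

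In the list of nuclear receptors known to act on Mertk and clearance genes, and of their targets, 8 of 10 tested genes fell. None rose and 2 did not pass (median -0.67). Among those that fell were a receptor under 1 FPKM in every library and another whose FPKM ranges overlapped between the groups. The share that fell was 80.0%, against 31.5% of all genes. The 2 that did not pass were Nr1h2 and Nr1h3, the liver X receptors themselves. Their partner Rxra fell by 1.05 on the log2 scale from a control level of 23.3 ± 1.11 FPKM, and the lipid sensor Ppard fell from 8.45 ± 0.247 to 6.99 ± 0.286 FPKM (SD, n = 5 each). The cholesterol exporters Abca1 and Abcg1, targets of liver X receptors, fell from 11.7 ± 0.577 to 7.7 ± 0.551 and from 15.5 ± 0.712 to 10.1 ± 0.382 FPKM. The edgeR adjusted p of these 4 genes was at most 6.47e-07.

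Genes that move phosphatidylserine across the membrane rose, 5 of 6, with 0 falling and 1, Plscr1, not passing (median 0.36). The share that rose was 83.3%, against 31.7% of all genes. The scramblases Xkr8 and Ano6 rose from 1.76 ± 0.0456 to 3.37 ± 0.319 and from 10.8 ± 0.246 to 14.6 ± 0.989 FPKM (SD, n = 5 each). Tmem30a, a subunit of the flippases that return phosphatidylserine to the inner leaflet, rose from 25.0 ± 3.22 to 39.2 ± 0.778 FPKM, and the flippase Atp11a rose by 0.17 on the log2 scale. The list thus holds genes of opposite action that rose alike, and these 4 had an edgeR adjusted p of at most 0.00148. In all 6 lists the numbers rising and falling were the same without mimic replicate 1.

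**Figure D5:**
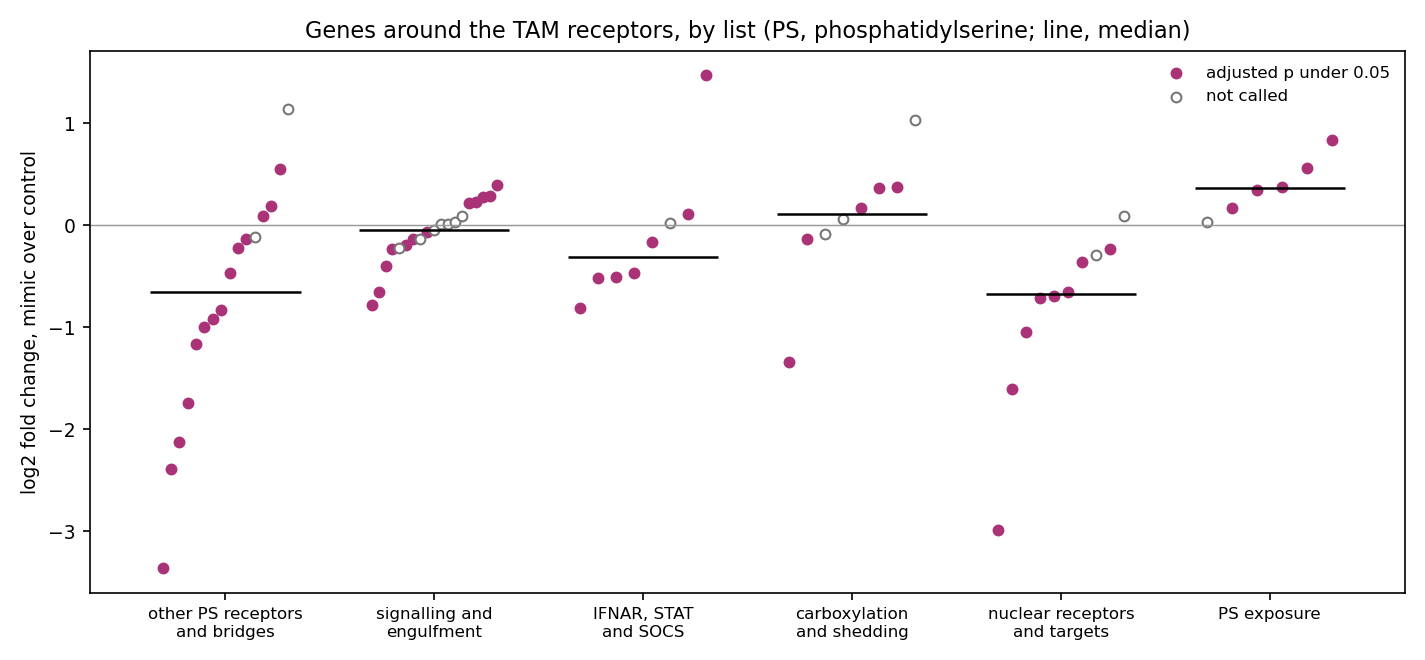
edgeR log2 fold change of mimic over control (vertical axis) for the tested genes of 6 lists around the TAM receptors, filled where the adjusted p was under 0.05 and open where it was not, with a line at each median. The medians were -0.65 for other phosphatidylserine receptors and bridges, -0.67 for nuclear receptors and targets and 0.36 for phosphatidylserine exposure.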

How the data were processed

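Poly(A) RNA was sequenced as paired reads from strand-marked dUTP libraries, per the labels' protocols. For each gene the authors deposited counts and FPKM, per the file headers. The submitters' processing notes name build GRCm39 and, with no roles, StringTie 2.1.6, HISAT2 2.2.1, cutadapt 1.9, edgeR and DESeq2. The deposited coordinates of all 5 members, and of 87.8% of 28163 matched genes, are identical to those of GENCODE M21, a GRCm38 annotation, so they are printed as GRCm38. The expected counts were whole as deposited and piled up at 4 (933.5 genes per library, against 485.6 at 3 and 305.8 at 5), which was read as about 4 counts per read pair. The FPKM values kept the authors' scaling. All 20 value columns matched a library by name.

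Groups came from the treatment label and replicate numbers from the title. Counts were filtered with filterByExpr, scaled by TMM and tested with edgeR 4.0.16 (R 4.3.3, glmQLFit and glmQLFTest, no covariate), adjusted by Benjamini-Hochberg over 15916 genes and called under 0.05. Standard errors are the fold change divided by the square root of F. Floors cover counting error only, since reads are not independent molecules. DESeq2 1.42.0 and limma 3.58.1 served as alternatives, beside other scalings and filters, the omission of each library and a replicate block. The tests were checked on simulated counts.

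The members, the 6 pathway lists and the 8 marker lists were chosen with earlier results of these data known. Named are the members, up to 5 called genes per list with the smallest p (3 such genes are not reported here), and the 3 genes most like each tested member. Of the pathway lists, Timd4, Havcr1, Gulp1, Twist2 and Ahr were not analysed here, and Adgrb1 and Twist1 had too few counts.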

Additional observations from a re-analysis of the deposited data

Results flagged for a closer look

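Of 89 sets of 5 libraries examined, 11 held 1 library far from the other 4 of its group by Dixon's test at the 95% level, where chance gives about 1 in 20. Mimic replicate 1 accounted for 8 of them. It stood apart in Axl (4.85 FPKM), Tyro3 (0.162 FPKM), the receptor sum (7.37 FPKM), the Axl share (65.8%) and the Mertk share (32.0%). It also stood apart in the epithelial marker sum (64.3 FPKM), the astrocyte marker sum (0.421 FPKM, against 0.102 to 0.184 in the other mimic libraries) and the endothelial marker sum (3.86 FPKM, against 4.3 to 4.47). The library was already known for its Axl level, and the receptor sum and both shares are built from that level. These 4 values are thus not set against chance and are not separate from each other. The Tyro3 level and the marker sums come from the same library and from lists chosen with earlier results known. They are not set against chance either. In the astrocyte sum Gja1 held 0.226 FPKM, against 0 in all other libraries.

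The other 3 were single genes in other libraries. Xkr8 was 2.8 FPKM in mimic replicate 3. C1qc was 1.02 FPKM in mimic replicate 5, and Socs3 was 7.46 FPKM in control replicate 3.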

How the results depend on the processing

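Mertk kept its direction and its call in all 24 alternatives, with a log2 fold change from -0.76 to -0.45. Axl was reversed in 7 of the 22 alternatives that gave it a call. It was -0.86 with limma on log2(FPKM + 0.1) (adjusted p = 0.525), -2.42 with a replicate block (edgeR adjusted p = 0.0783) and -3.88 to 1.59 with 1 library left out, where only the omission of mimic replicate 1 turned it. Alternatives chosen after seeing the data, all without mimic replicate 1 and thus descriptions for Axl, gave Axl -3.9 with DESeq2, -3.8 with library totals, -1.92 with limma on log2(FPKM + 0.1) and -3.69 with counts divided by 4. DESeq2 on all 10 libraries gave Axl no p-value. Pros1 ranged from 0.14 to 0.31 with 1 library left out and was called at 0.31 with library totals. Same-numbered libraries hardly deviated together (r from -0.0102 to 0.0768 across genes). The closest control of mimic replicates 3, 4 and 5 shared their number, but the closest mimic library of every control had another number. The replicate block thus rests on shared numbers only, and a call lost under it is not read as a weaker effect.

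In the lists, signalling and engulfment genes numbered 8 rising with library totals and 8 rising and 4 falling with limma at either pseudocount, and 5 to 6 rising and 6 to 9 falling with 1 library left out. The interferon list had 0 rising with no filter, 1 with a mean FPKM of at least 1, with counts divided by 4 or with the replicate block, and 0 to 2 with 1 library left out. With library totals or limma, carboxylation and shedding had 1 falling and nuclear receptors 1 rising. Of 27 genes named from the lists, 24 kept direction and call in every alternative. With 1 library left out Thbs1 ranged from -0.27 to 1.41 and Rhbdf1 from -0.35 to 1.28, negative only without mimic replicate 1. Over all genes, 50.2% of calls were rises, 58.4% with library totals and 59.5% with limma on log2(FPKM + 1). Tyro3 and Gas6 passed no filter, and Axl did not pass a mean FPKM of 1, so those alternatives gave no value. TPM leaves the shares unchanged by construction. Depth limits Gas6, Tyro3 and the Axl level in mimic libraries 2 to 5.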

Other observations

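Mimic replicate 1 held 40 genes at 1 FPKM or more that were at 0.1 FPKM or less in every other library, against at most 1 such gene in any other library. Among tested genes, Axl had the ninth largest excess of mimic replicate 1 over the highest other library. The genes ahead of it began with Fscn1, an actin bundling protein (5.66 FPKM against at most 0.11 FPKM), Cnn2, a calponin (3.87 against 0.15), the surface protein Tm4sf1 (2.65 against 0.14) and Card10 (1.24 against 0.0597). The laminin chain Lama5, the basement membrane proteoglycan gene Hspg2, Cavin1 and the collagen IV chain gene Col4a1 followed, and Ptgfrn came after Axl.

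The neighbours of Axl did not share its excess. Of the genes within 100 kb of Axl, 7 had a mean of at least 1 FPKM, among them Tgfb1 and Hnrnpul1, and their level in mimic replicate 1 was 0.751 to 1.21 times the mean of the other mimic libraries. The 3 such neighbours of Tyro3 (Rtf1, Mga and Rpap1) were at 0.898 to 0.988 times. These neighbours were looked up after the member values were seen, and no test was made.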
